A study of Yarrowia lipolytica with 9 samples.

Results

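The comparison described here set strain yl_12 against strain yl_11, with 3 RNA sequencing libraries of each strain, 6 of the 9 libraries in the series. The members were taken by the strain name in the library titles. Yarrowia lipolytica is an oleaginous yeast, which stores much of its carbon as oil. It makes lipids and isoprenoids from the same acetyl-CoA: fatty acid synthase builds acyl chains from it, and the mevalonate pathway turns it into the isoprenoid diphosphates that give sterols and, with added carotenoid genes, the red pigment lycopene. Acyl chains are broken down again by beta-oxidation in the peroxisome.

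Strains yl_12, yl_11 and yl_10 all derive from host ATCC 201249 and all carry heterologous genes, which the labels do not name. All were grown for 72 h in flasks at 28 °C and 250 rpm, so strain is the only labelled difference. The series is about strains that end with different amounts of lycopene, but no amount is tied to a strain here, no parent strain is named, and nothing says whether a strain is 1 clone. Whether a strain's 3 libraries stem from 3 cultures is not stated either, and every p-value here rests on a spread that may be technical only.

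The deposited table paired its features with RefSeq transcript accessions or with a running number, and not with gene products. Locus tags could be added for 5430 of the 5959 accessions. A list of 38 older locus tags of isoprenoid, fatty acid, storage lipid and beta-oxidation enzymes found 0 matches among the features and tags. The listed tags belong to a series that the reference at hand does not hold. The lack of matches therefore says nothing about the presence of these genes among the features. No lipid or isoprenoid enzyme could therefore be identified with certainty, and features are named here by tag or accession only, with no role given.

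The 6 libraries held 10995778 to 16424183 counts each. Within each strain 1 library stood apart. In yl_12 this was replicate 3, whose log2 CPM (counts scaled to the normalised library size) correlated with replicates 1 and 2 across 6147 features at r = 0.9928 and 0.9929. Its r with yl_11 replicate 1 was 0.9940. In yl_11 it was replicate 1, at r = 0.9956 and 0.9951 with its own replicates 2 and 3, which had r = 0.9967 with each other. The deviations of yl_12 replicate 3 and yl_11 replicate 1 from their strain means went together, at r = 0.489 across features. Features share these libraries and are not independent, so these values are descriptions. In yl_10, whose libraries enter the filter, the scaling and the estimate of the spread, replicate 3 was picked in the same way, as the library least like the rest of its strain. Where leaving out such a library ended a call or moved a value by over 1.5 times, the value without it is given.

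The strains differed by much in few features and by a little in many. Of 6147 features tested, 433 were called at an adjusted p below 0.05 in the quasi-likelihood test of edgeR, which is 7.04% of those tested. In yl_12, 197 features (3.2%) were higher and 236 (3.84%) were lower than in yl_11. At least a 2-fold change was reached by 20 of the 433 (0.325% of those tested), 7 higher and 13 lower. The median absolute log2 fold change of the called features was 0.34, against 0.10 over all tested features, and 111 of them changed by less than 0.25. Higher calls had a median of 0.31 and lower calls 0.36 in absolute log2 fold change. The 3 libraries of yl_12 did not overlap with the 3 of yl_11 in 432 of the 433 called features, and in 28.1% of all features tested.

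**Figure D1:**
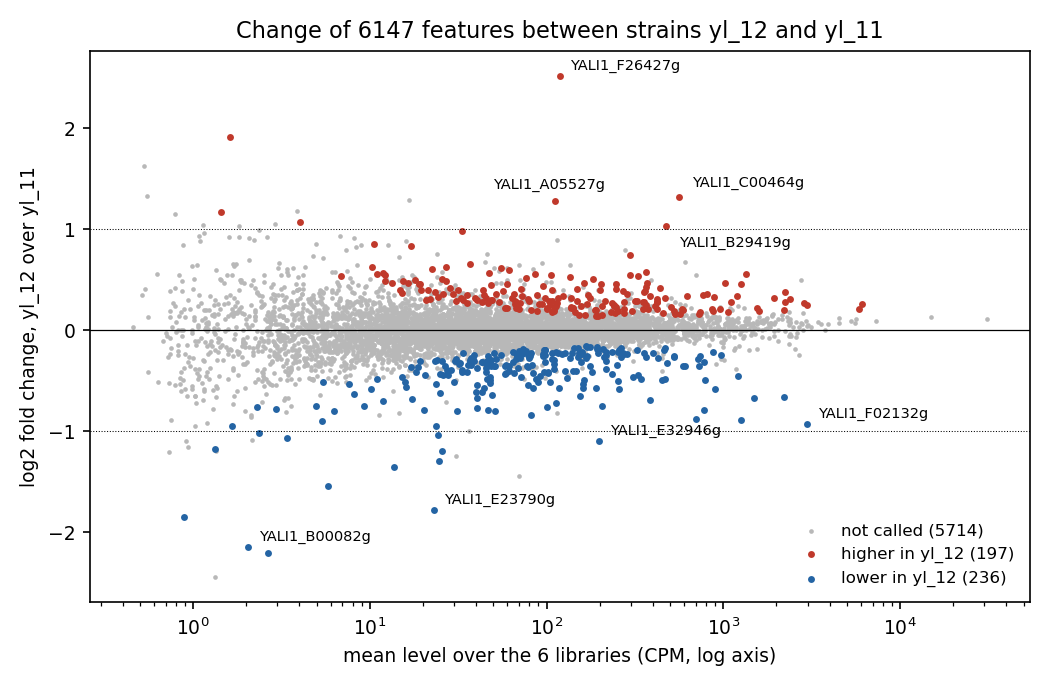
The log2 fold change of yl_12 over yl_11 (vertical axis) is plotted against the mean level over the 6 libraries (CPM, log axis) for 6147 features, with dotted lines at a 2-fold change. Red points are the 197 features higher and blue points the 236 lower in yl_12. Most called features lie well inside the dotted lines, and YALI1_F26427g lies highest.

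With library totals as the only scaling the split of calls was 115 higher and 296 lower, a share of 28.0% higher against 45.5% with TMM factors, and the share of rises therefore moved with the scaling. The number of calls depended on which libraries entered. When yl_12 replicate 1, 2 or 3 was left out there were 193, 190 and 718 calls, and for yl_11 replicate 1, 2 or 3 there were 201, 227 and 229. For yl_10 replicate 1, 2 or 3 there were 344, 376 and 605. A fit that dropped yl_12 replicate 3, yl_11 replicate 1 and yl_10 replicate 3 together gave 1514, with 803 higher and 711 lower. Since these libraries were picked as the least alike within their strains, a smaller spread follows from the choice itself. All 433 features kept their direction in each of the fits with 1 library left out. Since 432 of the 433 had no overlap between the strains, leaving out 1 library could hardly turn a direction. Of the 433, 155 (55 higher, 100 lower) kept their call in all 9 such fits.

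**Figure D2:**
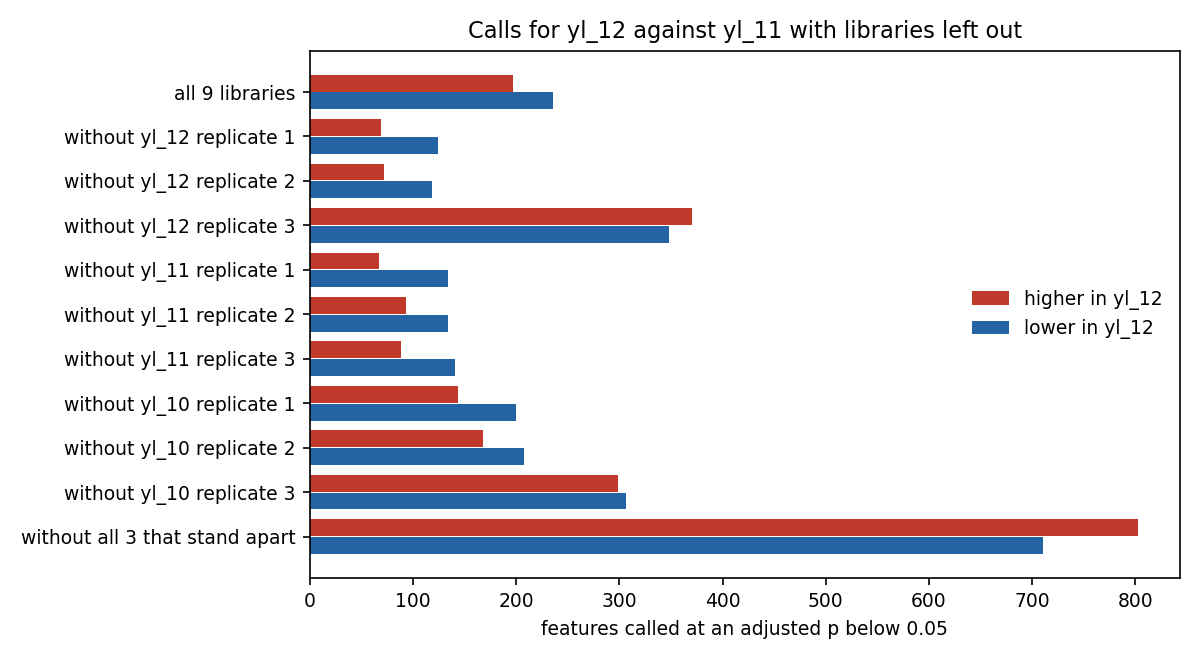
Bars give the number of features called higher (red) and lower (blue) in yl_12 than in yl_11 (horizontal axis) with all 9 libraries, with 1 library left out, and without the 3 that stand apart. Leaving out yl_12 replicate 1 or 2 gave 193 and 190 calls in all, and leaving out yl_12 replicate 3 gave 718.

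YALI1_F26427g (XM_505640.1, coding length 1818 bases) had the largest rise. It had 193, 190 and 226 CPM in the yl_12 libraries, against 41.0, 31.7 and 32.6 CPM in the yl_11 libraries. Every yl_12 library lay far above every yl_11 library, a 5.74-fold difference (log2 fold change 2.52, SE 0.11, adjusted p = 4.83e-07). The level in yl_10, 37.1 ± 3.4 CPM (SD, n = 3), was near that in yl_11.

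YALI1_C00464g (XM_501284.1, 456 bases) had 821, 789 and 804 CPM in yl_12, against 317, 327 and 325 CPM in yl_11. The spread within each strain was small beside the 2.49-fold difference (log2 fold change 1.32, SE 0.05, adjusted p = 3.47e-08). Here yl_10, at 927 ± 65 CPM, was nearer to yl_12, and yl_11 was the strain with the low level. The smaller difference of yl_12 from yl_10 was called too (log2 fold change -0.20, SE 0.05, adjusted p = 0.019).

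YALI1_A05527g (XM_499787.1, 3039 bases) had 170, 175 and 131 CPM in yl_12, against 59.9, 68.4 and 68.2 CPM in yl_11 (log2 fold change 1.28, SE 0.11, adjusted p = 9.31e-05). Replicate 3 was the lowest yl_12 library and still lay well above yl_11. YALI1_B29419g (XM_501224.1) had 635, 626 and 652 CPM in yl_12, against 313, 301 and 318 CPM in yl_11 (log2 fold change 1.04, SE 0.12, adjusted p = 0.000924). The mean in yl_10 was 224 ± 47 CPM, and yl_11 against yl_10 was not called (adjusted p = 0.058).

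Of the 10 largest rises with at least 10 CPM in the higher strain, the others were below 2-fold. YALI1_B12781g was at 32.7 ± 0.8 CPM in yl_12 and 21.2 ± 1.6 CPM in yl_11 (log2 fold change 0.63, SE 0.08). YALI1_C01491g was at 13.6 ± 0.5 CPM in yl_12 and 7.54 ± 1.27 CPM in yl_11 (0.86, SE 0.13). Both kept their calls in every alternative that gave an adjusted p. YALI1_F26367g lies near YALI1_F26427g and is described with its neighbours.

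The calls of 2 other rises were lost in several alternatives, as was that of YALI1_C00550g, described with its neighbours. XM_505464.1, a coding sequence of 168 bases with no locus tag, was at 21.9 ± 2.5 CPM in yl_12 and 12.3 ± 1.9 CPM in yl_11 (log2 fold change 0.83, SE 0.18, adjusted p = 0.017). Its call was lost without yl_12 replicate 1 (adjusted p = 0.060) or 2 (0.083) and without yl_11 replicate 2 (0.069) or 3 (0.051). It was also lost in limma on log2(FPKM + 1) (0.084) and on log2(FPKM + 0.1) (0.087). YALI1_E15398g was at 45.0 ± 6.7 CPM in yl_12 and 28.6 ± 4.6 CPM in yl_11 (0.66, SE 0.16, adjusted p = 0.043). Its call was lost without yl_12 replicate 1 (0.152) or 2 (0.157), in the absence of yl_11 replicate 1 (0.151) or 3 (0.133), and of yl_10 replicate 1 (0.076). It was also lost with library totals only (0.070) and in limma on both scales (0.092 and 0.097).

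Among features with at least 10 CPM in the higher strain, YALI1_E23790g had the largest fall. YALI1_E23790g (XM_504164.1, 1059 bases) had 10.2, 10.2 and 10.8 CPM in yl_12, against 37.5, 35.0 and 34.3 CPM in yl_11. The libraries of each strain were close together, and the difference was large beside that spread (log2 fold change -1.78, SE 0.09, adjusted p = 3.32e-07). Its level in yl_10 was 34.8 ± 3.9 CPM, near that in yl_11.

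YALI1_E09779g (XM_503684.1) had 15.5, 12.3 and 15.1 CPM in yl_12, against 35.3, 34.8 and 34.9 CPM in yl_11 (log2 fold change -1.29, SE 0.10, adjusted p = 1.17e-05). YALI1_C28263g (XM_502043.1) had 16.2, 16.9 and 14.8 CPM in yl_12, against 34.7, 34.8 and 28.7 CPM in yl_11 (-1.04, SE 0.09, adjusted p = 3.22e-05). YALI1_F12810g (XM_505194.1) had 17.3, 16.5 and 14.7 CPM in yl_12, against 33.9, 28.3 and 31.6 CPM in yl_11 (-0.95, SE 0.10, adjusted p = 8.77e-05). The strains did not overlap in any of these, as the naming rule required. Means in yl_10 were 44.0 CPM for YALI1_E09779g and 41.9 CPM for YALI1_F12810g, above both strains, and the mean for YALI1_C28263g, 25 CPM, lay between them.

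YALI1_C18209g and YALI1_C21578g fell with a wider spread within each strain. YALI1_C18209g, with a coding length of 183 bases, had 6.52, 5.77 and 10.8 CPM in yl_12, against 25, 15.5 and 18.1 CPM in yl_11 (log2 fold change -1.36, SE 0.27, adjusted p = 0.020). YALI1_C21578g had 14.8, 11.7 and 20.5 CPM in yl_12, against 46.8, 29.3 and 31.2 CPM in yl_11 (-1.20, SE 0.23, adjusted p = 0.020). In both, yl_12 replicate 3 and yl_11 replicate 1 were the highest of their strain. The call of YALI1_C18209g was lost without yl_12 replicate 1 (adjusted p = 0.088) or 2 (0.076), and that of YALI1_C21578g likewise (0.095 and 0.064). Without yl_12 replicate 3 the log2 fold changes were -1.69 for YALI1_C18209g and -1.45 for YALI1_C21578g. Without yl_11 replicate 1 they were -1.13 for YALI1_C18209g and -0.95 for YALI1_C21578g, which is below 2-fold, and without both libraries -1.45 and -1.19 in the same order.

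Falls also reached abundant transcripts. YALI1_F02132g (XM_504857.1) had 1960, 1923 and 2280 CPM in yl_12, against 4049, 3901 and 3799 CPM in yl_11 (log2 fold change -0.93, SE 0.07, adjusted p = 1.09e-05). XM_503410.1, of 390 bases, had 801, 783 and 1075 CPM in yl_12, against 1601, 1629 and 1706 CPM in yl_11 (-0.89, SE 0.11, adjusted p = 0.000924). In both, replicate 3 was the yl_12 library nearest to yl_11, and it did not reach the level of yl_11.

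YALI1_E30815g (XM_504406.1) had 500, 488 and 499 CPM in yl_12, against 892, 930 and 919 CPM in yl_11 (log2 fold change -0.88, SE 0.04, adjusted p = 2.38e-07). YALI1_E32946g (XM_504487.1) had 118, 110 and 153 CPM in yl_12, against 296, 263 and 256 CPM in yl_11 (-1.10, SE 0.14, adjusted p = 0.00238). YALI1_C11862g was at 1713 ± 187 CPM in yl_12 and 2705 ± 30 CPM in yl_11 (-0.66, SE 0.07), and YALI1_B18572g at 1153 ± 60 CPM in yl_12 and 1835 ± 37 CPM in yl_11 (-0.67, SE 0.06). All 4 kept their calls in every alternative.

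**Figure D3:**
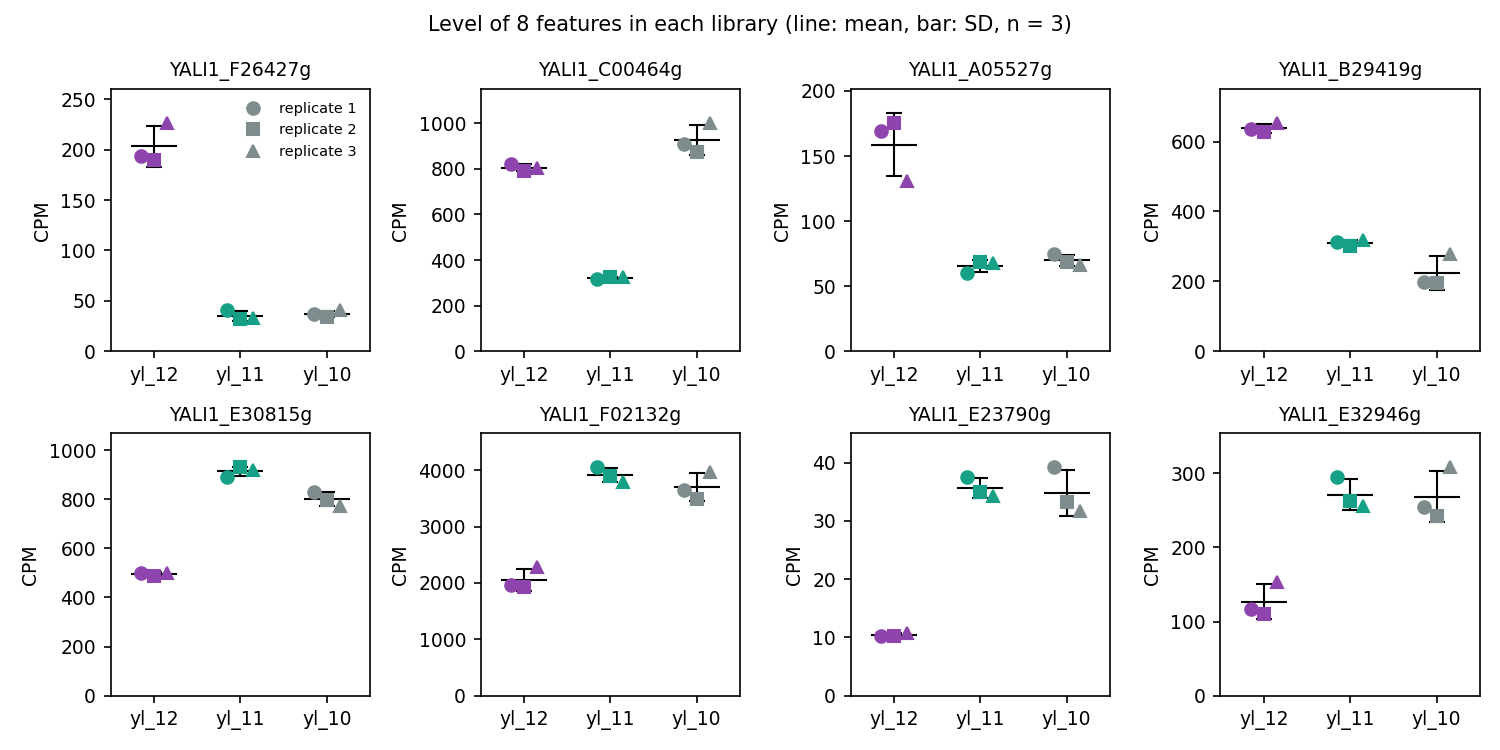
CPM in each library is shown for 8 features in yl_12, yl_11 and yl_10, with a marker per replicate, a line at the mean and a bar for the SD (n = 3). The strains yl_12 and yl_11 do not overlap in any panel, which was a condition for naming these features. For YALI1_C00464g, yl_11 has by far the lowest level of the 3 strains.

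The most abundant features with a rise changed by little. YALI1_A10857g had 6813, 6865 and 6369 CPM in yl_12, against 5203, 5771 and 5712 CPM in yl_11 (log2 fold change 0.26, SE 0.06, adjusted p = 0.017). Scaled to its coding length of 354 bases, this is 18518 FPKM in yl_12 and 15741 FPKM in yl_11 in the authors' values. YALI1_C08262g was at 6279 ± 207 CPM in yl_12 and 5414 ± 255 CPM in yl_11 (0.21, SE 0.05), and YALI1_C16851g at 3237 ± 292 CPM in yl_12 and 2720 ± 18 CPM in yl_11 (0.25, SE 0.07). The 3 libraries of yl_12 lay above those of yl_11 for all 3 features.

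These rises were near the limit of what was called. That of YALI1_A10857g was lost without yl_12 replicate 1 (adjusted p = 0.080) or 2 (0.083) and without yl_11 replicate 1 (0.085) or 3 (0.051). That of YALI1_C08262g was lost without yl_12 replicate 1 or 2 (0.108 for each), without yl_11 replicate 1 (0.119), 2 (0.081) or 3 (0.053), and with library totals only (0.055). That of YALI1_C16851g was lost without yl_12 replicate 1 (0.075), in the absence of yl_11 replicate 1 (0.120), 2 (0.112) or 3 (0.130) or of yl_10 replicate 1 (0.058), and without both yl_12 replicate 3 and yl_11 replicate 1 (0.087). In limma on log2(FPKM + 1) the adjusted p was 0.102 for YALI1_A10857g, 0.091 for YALI1_C08262g and 0.077 for YALI1_C16851g, and none of the 3 was called there or on log2(FPKM + 0.1).

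Of the 20 features with a 2-fold change, 10 had a mean under 10 CPM in both strains and rest on few counts. Those outside the naming rule were chosen after their values were seen. Novel00004, a feature with a running number, had 3.43, 2.19 and 2.15 CPM in yl_12, against 0.79, 0.90 and 0.27 CPM in yl_11 (log2 fold change 1.91, SE 0.34). YALI1_E10320g had 2.23, 2.52 and 4.22 CPM in yl_12, against 10.9, 7.32 and 7.70 CPM in yl_11 (-1.55, SE 0.23). YALI1_E03973g had 1.12, 0.65 and 1.16 CPM in yl_12, against 7.27, 2.55 and 3.17 CPM in yl_11 (-2.20, SE 0.52), with yl_11 replicate 1 far above the other libraries of yl_11. Its adjusted p, 0.036 with all libraries, was 0.116, 0.142 and 0.067 when yl_12 replicate 1, 2 or 3 was left out. It was 0.052 without yl_11 replicate 1, where the log2 fold change was -1.54, and 0.053 without yl_11 replicate 3. It was 0.056 and 0.054 in the absence of yl_10 replicate 1 or 2. The calls of Novel00004, YALI1_E10320g and YALI1_B00082g held with any 1 library left out.

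The other 6 scarce features lost their calls in such fits. Novel00140 (log2 fold change 1.17) lost its call without yl_12 replicate 1 (adjusted p = 0.108) or 2 (0.058) and without any 1 library of yl_11 (0.059, 0.109 and 0.077). YALI1_A04676g (1.07) lost its call without yl_12 replicate 1 (0.060) or 2 (0.070) and when yl_11 replicate 1 was left out (0.065). YALI1_A12037g (-1.07) lost its call without yl_12 replicate 1 (0.101), when yl_11 replicate 2 (0.102) or 3 (0.053) was left out, and with only the 6 libraries (0.052). These 3 features kept the same sign in every fit that gave a value, which the lack of overlap between their libraries made likely.

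YALI1_F25587g (log2 fold change -1.17) lost its call without yl_12 replicate 1 (adjusted p = 0.080) or 2 (0.087) and when yl_11 replicate 1 (0.051) or 3 (0.066) was left out. YALI1_F33381g (-1.02) lost its call without yl_12 replicate 1 (0.145), without any 1 library of yl_11 (0.107, 0.111 and 0.072), and when yl_10 replicate 1 was left out (0.055). YALI1_D01515g (-1.85) lost its call without yl_12 replicate 1 (0.147) or 2 (0.093), when yl_11 replicate 1 (0.147) or 2 (0.124) was left out, and when yl_10 replicate 1 was left out (0.056). Without both yl_12 replicate 3 and yl_11 replicate 1, calls were lost for Novel00140 (0.061), YALI1_F33381g (0.096) and YALI1_D01515g (0.103), and in limma on log2(FPKM + 1) for YALI1_F33381g (0.052) and YALI1_D01515g (0.089). Of the 10 scarce features, 7 lost their call in at least 1 fit with 1 library left out.

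Another 17 features differed at least 2-fold in the fit and were not called, 4 of them with at least 10 CPM in the higher strain. These 4 were chosen after their values were seen. YALI1_D34980g had 24.4, 24.9 and 63.6 CPM in yl_12, against 165, 69.9 and 69.2 CPM in yl_11 (log2 fold change -1.44, SE 0.53, adjusted p = 0.197). YALI1_F25382g had 12.5, 13.9 and 28.8 CPM in yl_12, against 66.3, 32.3 and 30.3 CPM in yl_11 (-1.24, SE 0.45, adjusted p = 0.178). YALI1_F08585g had 21.3, 16.4 and 35.3 CPM in yl_12, against 68.9, 36.5 and 39.1 CPM in yl_11 (-1.0, SE 0.41, adjusted p = 0.232).

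In these 3 features the strains did not overlap, and yl_12 replicate 3 and yl_11 replicate 1 were each well above the other libraries of their strain. YALI1_E36619g had the same 2 high libraries with the opposite sign between strains and an overlap, at 13.3, 16.5 and 41.4 CPM in yl_12, against 13.6, 7.73 and 7.07 CPM in yl_11 (log2 fold change 1.29, SE 0.51, adjusted p = 0.211). All 4 were called in the fit that dropped the 3 libraries least alike within their strains. That fit leaves out the 2 high libraries, so a smaller spread in these features follows from the choice itself. The log2 fold changes were then -1.49 for YALI1_D34980g, -1.24 for YALI1_F25382g, -1.01 for YALI1_F08585g and 1.01 for YALI1_E36619g.

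Over the 433 called features, yl_12 replicate 3 was the yl_12 library nearest to the yl_11 mean in 252 (58.2%), replicate 1 in 88 and replicate 2 in 93. In yl_11, replicate 1 was nearest to the yl_12 mean in 114 (26.3%), replicate 2 in 164 and replicate 3 in 155. The same count was not made over all tested features, and the calls rest on these same libraries. The shares therefore do not show whether called features differ from the rest in this. The median change of the 433 features in their own direction was 0.34 on the log2 scale with all libraries. With 1 library left out it ranged from 0.32 (without yl_11 replicate 1) to 0.36 (without yl_12 replicate 3).

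Among 5342 tested genes with a locus tag, there were 30 pairs of neighbours called in the same direction, and 18 genes lay in 5 runs of at least 3. Over all tested features, 3.2% were called higher and 3.84% lower. Pairs called in opposite directions were not counted, and the number expected from these shares was not computed. The pairs and runs are therefore descriptions. Neighbours were taken in the gene order of the RefSeq assembly ASM176148v1. The largest called change of the comparison lay in the longest run, on chromosome F. In table order, the log2 fold change of YALI1_F26234g was 0.17 (SE 0.04) and that of YALI1_F26313g was 0.32 (SE 0.07). Next came YALI1_F26367g at 0.74 (SE 0.07), YALI1_F26399g at 0.62 (SE 0.08) and YALI1_F26427g at 2.52 (SE 0.11). No other gene of the table lies between these 5.

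The members differed in level, with 372 ± 14 CPM in yl_12 and 223 ± 17 CPM in yl_11 for YALI1_F26367g, 258 ± 5 CPM in yl_12 and 229 ± 7 CPM in yl_11 for YALI1_F26234g, and 67.1 ± 5.1 CPM in yl_12 and 43.9 ± 3.6 CPM in yl_11 for YALI1_F26399g. YALI1_F26367g, YALI1_F26399g and YALI1_F26427g kept their calls in every alternative. The call of YALI1_F26313g was lost without yl_12 replicate 1 (adjusted p = 0.081) or 2 (0.070) and without yl_11 replicate 1 (0.067) or 3 (0.083). That of YALI1_F26234g was lost without yl_12 replicate 1 (0.068) or 2 (0.085), without yl_11 replicate 1 (0.116), 2 (0.061) or 3 (0.071), and without both yl_12 replicate 3 and yl_11 replicate 1 (0.097). It was also lost in limma on log2(FPKM + 1) (0.055) and on log2(FPKM + 0.1) (0.056).

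On the far side of YALI1_F26427g, 1 gene of the table was not tested. The next tested genes had log2 fold changes of 0.34 (SE 0.13, adjusted p = 0.172) for YALI1_F26519g and -0.21 (SE 0.11, adjusted p = 0.318) for YALI1_F26574g. In yl_12 against yl_10, which uses the same yl_12 libraries, the 5 genes of the run had log2 fold changes of 0.10, 0.31, 0.72, 0.43 and 2.46 in the same order. There YALI1_F26234g was not called (adjusted p = 0.128), whereas the genes on the far side were called, YALI1_F26519g at 0.79 (adjusted p = 0.0043) and YALI1_F26574g at -1.17 (adjusted p = 0.00018).

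The second run held YALI1_C00464g and the 2 genes after it. YALI1_C00464g is gene 19 of the table from an end of chromosome C. YALI1_C00503g was at 13.1 ± 0.8 CPM in yl_12 and 8.92 ± 0.87 CPM in yl_11 (log2 fold change 0.56, SE 0.14), and YALI1_C00550g at 43.9 ± 8.3 CPM in yl_12 and 22.4 ± 5.0 CPM in yl_11 (0.98, SE 0.23). In yl_10, YALI1_C00464g was at 927 CPM, while YALI1_C00503g and YALI1_C00550g were at 7.86 and 17.9 CPM. The first gene was thus near its yl_12 level in yl_10, and the other genes of the run were nearer to their yl_11 level.

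The call of YALI1_C00464g held in every alternative. That of YALI1_C00503g was lost without yl_12 replicate 1 (adjusted p = 0.125) or 2 (0.122), without yl_11 replicate 1 (0.124), 2 (0.061) or 3 (0.120), without both yl_12 replicate 3 and yl_11 replicate 1 (0.072), and with library totals only (0.056). That of YALI1_C00550g was lost without yl_12 replicate 1 (0.147) or 2 (0.146), in the absence of yl_11 replicate 1 (0.145) or 2 (0.142) or of yl_10 replicate 2 (0.076), and with library totals only (0.054). In limma on log2(FPKM + 1) both were lost (0.080 for YALI1_C00503g and 0.060 for YALI1_C00550g), as on log2(FPKM + 0.1) (0.087 and 0.065).

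A run of falls, YALI1_B00049g, YALI1_B00082g and YALI1_B00133g, lay at an end of chromosome B. YALI1_B00049g had 24.8, 21.0 and 22.3 CPM in yl_12, against 41.3, 40.5 and 36.3 CPM in yl_11 (log2 fold change -0.80, SE 0.08). The middle gene, the third from the end in the table, was scarce at 0.86, 0.81 and 0.58 CPM in yl_12, against 3.24, 3.87 and 2.99 CPM in yl_11 (-2.15, SE 0.25). YALI1_B00133g had 72.1, 76.1 and 76.5 CPM in yl_12, against 131, 123 and 127 CPM in yl_11 (-0.76, SE 0.07), and 2 genes of the table lie between it and YALI1_B00082g. The strains did not overlap in any gene of the run, and all 3 kept their calls in every alternative that gave an adjusted p. For YALI1_B00082g the log2 fold change was -1.15 with limma on log2(FPKM + 1), a scale that understates changes of scarce genes. Means in yl_10 were 24.6, 1.09 and 75.6 CPM in the same order, near yl_12.

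The last 2 runs had smaller changes. YALI1_F02508g was at 56.3 ± 4.8 CPM in yl_12 and 37.9 ± 2.7 CPM in yl_11 (log2 fold change 0.57, SE 0.08), and YALI1_F02545g at 161 ± 4 CPM in yl_12 and 112 ± 6 CPM in yl_11 (0.53, SE 0.05). Their neighbour in the run, YALI1_F02481g, had an adjusted p of 0.0496, and its call was lost in 16 of the 21 alternatives. With 1 library left out it was lost for each library but yl_10 replicate 3, with adjusted p from 0.066 to 0.194, and its log2 fold change of 0.45 was 0.29 without both yl_12 replicate 3 and yl_11 replicate 1 (adjusted p = 0.206).

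On chromosome E, YALI1_E41393g, YALI1_E41399g, YALI1_E41421g and YALI1_E41436g had log2 fold changes of -0.38, -0.36, -0.33 and -0.31, with levels in yl_12 from 38.4 to 424 CPM. The call of YALI1_E41421g was lost without yl_12 replicate 1 (adjusted p = 0.057). That of YALI1_E41436g was lost without yl_12 replicate 1 (0.133) or 2 (0.142), in the absence of yl_11 replicate 1 (0.163) or 3 (0.083) or of yl_10 replicate 1 (0.057) or 2 (0.053), without both yl_12 replicate 3 and yl_11 replicate 1 (0.056), and in the fit of the 6 libraries of yl_12 and yl_11 alone (0.069).

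**Figure D4:**
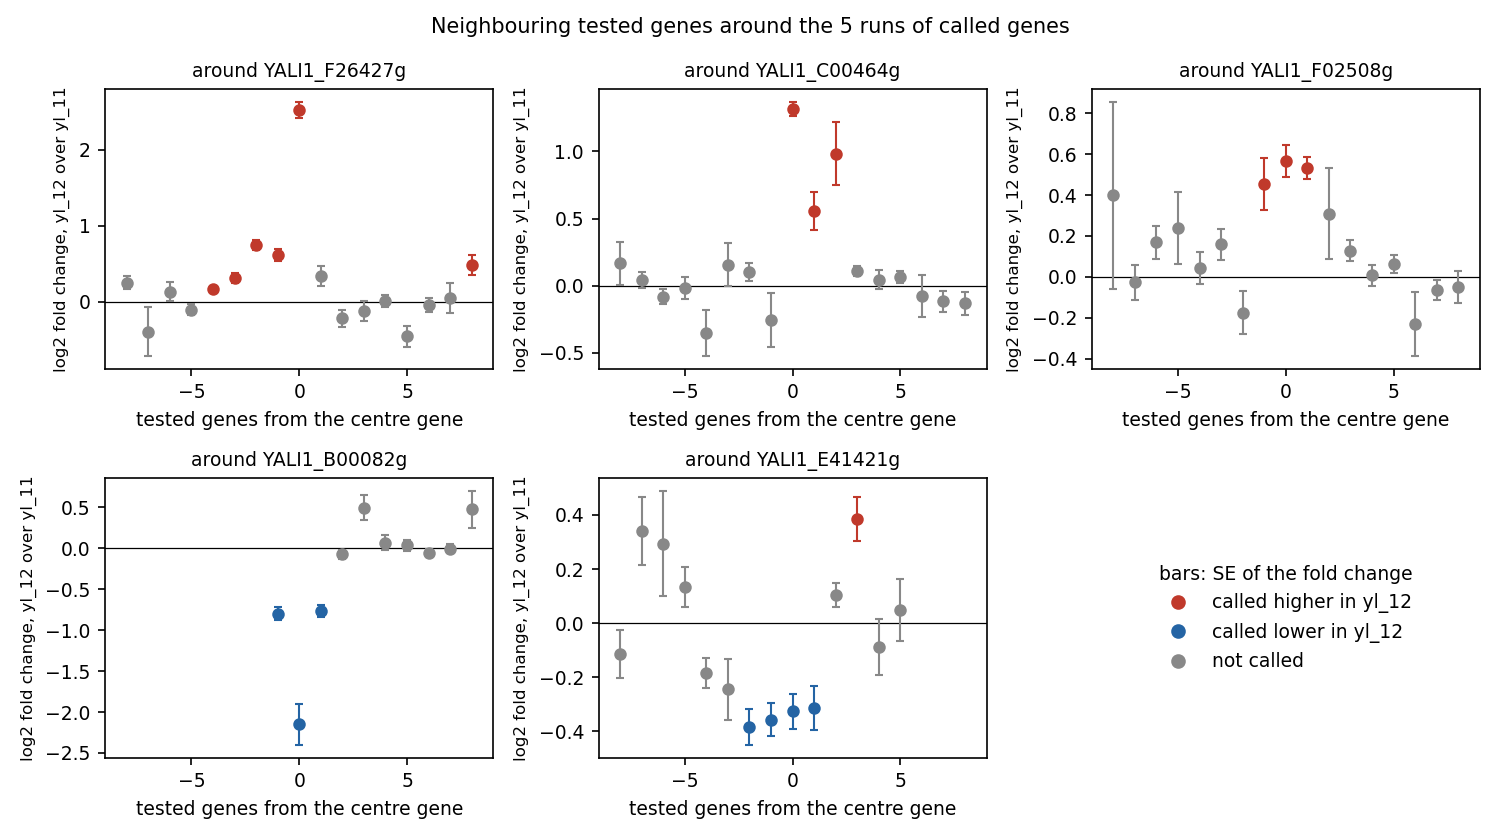
Log2 fold changes of yl_12 over yl_11 with SE bars (vertical axis) are shown for tested genes in table order around the centre gene of each panel (horizontal axis, steps in tested genes). Red and blue points are genes called higher and lower in yl_12. The change is 2.52 at YALI1_F26427g and 0.74 or less in the called genes on its left.

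RefSeq features were put into 4 classes of 1447 by coding length, and the counts of calls in them are descriptions with no test. Of the 1447 longest (1830 to 19617 bases), 72 were higher and 43 lower in yl_12, and 7.95% were called, against 7.04% over all features. Of the 1447 shortest (78 to 810 bases), 24 were higher and 50 lower, and 5.11% were called. The classes between had 48 higher and 70 lower (810 to 1242 bases), and 47 higher and 66 lower (1242 to 1830 bases). The median log2 fold change was 0.02 in the longest and -0.02 in the shortest class. With library totals only, the split over all features moved to 115 higher and 296 lower. The longest class then had 44 higher and 55 lower, and the shortest 16 higher and 66 lower.

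In the fit that dropped the 3 libraries least alike within their strains, 803 features were higher and 711 lower over all classes. The counts were 277 higher and 98 lower in the longest class, and 102 higher and 253 lower in the shortest. The difference was not shared by all libraries of yl_12. The median deviation from the mean of the 6 libraries was higher in the longest than in the shortest class by 0.0545 and 0.0477 on the log2 scale in yl_12 replicates 1 and 2. In yl_12 replicate 3 this difference was -0.0329, and in yl_11 replicates 1, 2 and 3 it was -0.0083, -0.0375 and -0.0340. In yl_10 it was 0.0259, 0.0649 and 0.108. Length went with level, at medians of 89.6 CPM in the longest and 31.0 CPM in the shortest class. Among features at or above the median level alone, the difference was 0.0659, 0.0649 and -0.0503 in yl_12 replicates 1, 2 and 3, against -0.0183, -0.0340 and -0.0333 in yl_11 replicates 1, 2 and 3. The part of this length difference in the calls was not tested.

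**Figure D5:**
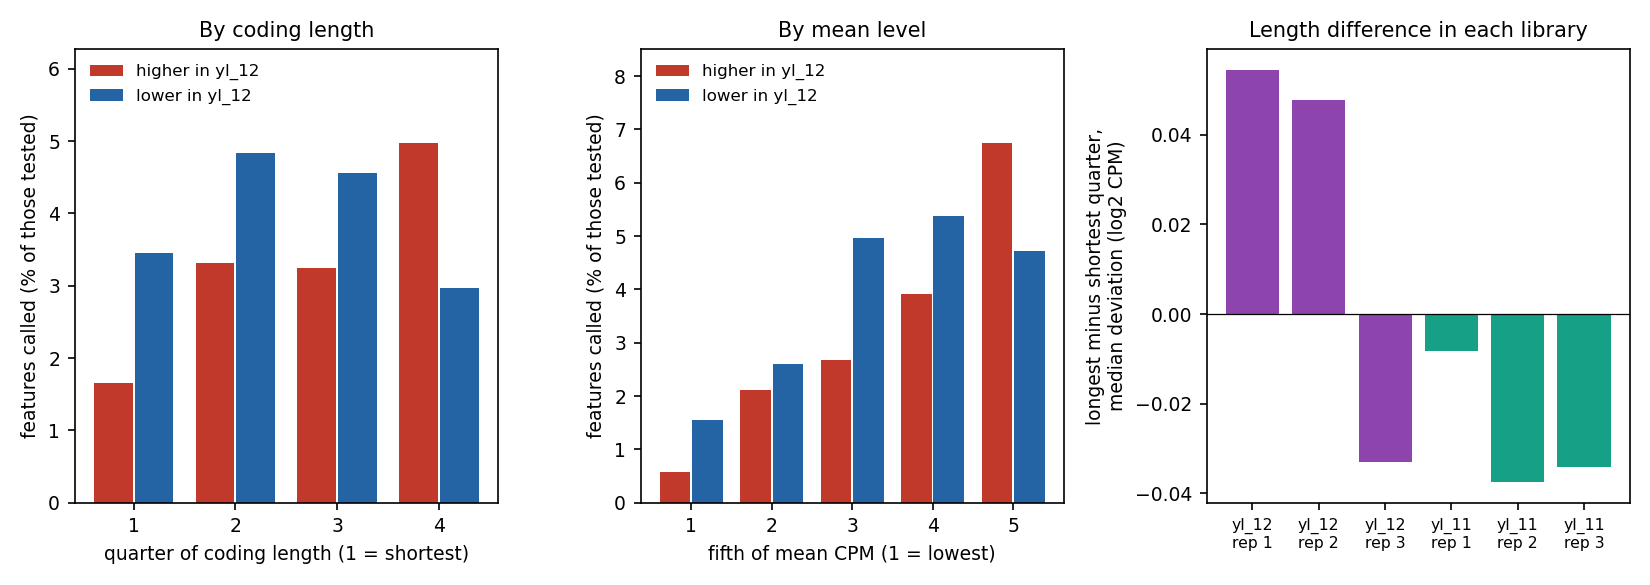
The left and middle panels give the percent of tested features called higher (red) and lower (blue) in yl_12 by 4 classes of coding length and 5 classes of mean CPM. The right panel gives, for each library, the median deviation (log2 CPM) of the longest minus the shortest class. It is above 0 in yl_12 replicates 1 and 2, and below 0 in yl_12 replicate 3 and in all 3 yl_11 libraries.

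Errors were smaller in abundant features, and a larger share of them was called. Of the 1230 features with the highest mean CPM (at least 184 CPM), 11.5% were called, with a median SE of the log2 fold change of 0.052. Of the 1230 with the lowest (under 11.6 CPM), 2.11% were called, with a median SE of 0.19, against 7.04% called over all features. Among the most abundant, 83 were higher and 58 lower in yl_12. With library totals only these counts were 57 and 80, where the split over all features was 115 higher and 296 lower. In the other 4 classes by level more features were lower than higher in the main fit, such as 48 higher and 66 lower from 69.7 to 184 CPM. Without the 3 libraries least alike within their strains, the split over all features was 803 higher and 711 lower. The most abundant class then had 340 higher and 207 lower, and the next 190 and 192. The remaining classes, in falling order of level, had 125 and 155, 101 and 93, and 47 and 64. These splits were not tested.

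Calls were spread over the genome. The share called ranged from 6.76% on chromosome D to 8.34% on chromosome F among features with a locus tag. Among the 368 tested features within 50 table genes of a chromosome end, 10.6% were called, 19 higher and 20 lower, against 7.22% of the 4974 further in. Features with a running number, which have no entry in the reference annotation, were called in 3.62% of 359, 6 higher and 7 lower, and were scarcer, with a median of 17.7 CPM against 49.7 CPM for RefSeq features, of which 7.26% were called. Without those 3 libraries, 22 of the 359 were higher and 56 lower, against 781 and 655 of 5788 RefSeq features. None of these shares was tested.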

How the data were processed

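Per the labels' protocols, 9 libraries of total RNA were sequenced in pairs of 150 bp reads. The authors deposited whole-number read counts per feature, not normalised. They also deposited FPKM values. A single length per feature, solved from counts, FPKM and library totals, reproduced these values in the 9 libraries. The coding lengths given here were solved in this way. The submitters' processing notes name HTSeq 0.6.1 and DESeq 1.18.0 without saying what each did. Not given in the sources used here are aligner, genome build and strand setting, so reads of overlapping, antisense or near-identical genes may have been split or lost.

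The main test was the quasi-likelihood test of edgeR 4.0.16 (R 4.3.3), using TMM factors, filterByExpr by strain and robust dispersions. A single model of strain took in the 9 libraries, so yl_10 contributes to the estimate of the spread. After the filter 6147 of 6366 features were tested. Adjustment was by Benjamini-Hochberg over all features tested, and calls had an adjusted p below 0.05. CPM use TMM-scaled totals. The test was also run on simulated data. No 2 libraries of a strain agreed within counting noise (chi-square per degree of freedom 1.72 or more).

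Features were named by rule: the 10 largest rises and 10 largest falls among calls with at least 10 CPM in the higher strain and no overlap, the 3 most abundant calls in each direction, and runs of at least 3 neighbours. Pairs by protein identity, planned as another part of the rule, were not used here, since no protein sequences were at hand. Only tested genes with a locus tag counted as neighbours. The members, lists and rule were chosen with earlier results of these data known. Alternatives were other scalings, filters and tests (DESeq2 1.42.0, limma 3.58.1 on FPKM), a replicate block, and libraries left out.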

Additional observations from a re-analysis of the deposited data

How the results depend on the processing

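Over 21 alternatives, 25 of the 39 named features kept their call wherever an adjusted p was given, 14 lost it in at least 1, and 0 changed direction. No overlap between the strains was a condition for naming many of them, so a change of direction was unlikely from the start. Of the 433 calls, 147 (52 higher, 95 lower) were called in all 21. The alternative that required a mean of at least 10 CPM cannot keep scarcer features. With 1 library left out, calls ranged from 190 to 718, higher calls from 67 to 370, lower calls from 118 to 348, and 2-fold calls from 13 to 32. Without the 3 libraries that stand apart there were 1514 calls, 803 higher and 711 lower, and 34 with a 2-fold change, and 429 of the 433 were among them. Without yl_11 replicate 1 and yl_12 replicate 3 alone, added after seeing the data, there were 477 calls, and only 316 of the 433 were among them. Higher calls numbered 115 with library totals only, 83 with limma on log2(FPKM + 1) and 84 with limma on log2(FPKM + 0.1), where values hold no composition factor. The filter of 10 CPM left 10 features with a 2-fold change, since it tests fewer scarce features. DESeq2 called 487. Deviations of same-numbered yl_12 and yl_11 libraries correlated at -0.354, 0.161 and -0.316 across features. The values were 0.059, 0.174 and 0.274 for yl_12 and yl_10, and -0.217, 0.150 and -0.229 for yl_11 and yl_10. The library that stands apart in each strain weighs on these values, so they do not decide whether replicate numbers pair the libraries. With the replicate number as a block, 328 features were called, 140 higher and 188 lower, with 18 at 2-fold. The call of YALI1_C00550g was lost under the block (adjusted p = 0.118), as were those of YALI1_C08262g (0.055), YALI1_F02481g (0.091), Novel00140 (0.058) and YALI1_D01515g (0.067). In limma on log2(FPKM + 1), 9 named features lost their call, with adjusted p from 0.055 to 0.124. The median SE was 0.19 in features under 11.6 CPM, and the parts of depth and of the spread between libraries in it were not tested. Apart from what the construction of an alternative shows, the cause of these shifts was not tested.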

Other observations

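Below the expression filter lay 219 features, with at most 24 counts in any of the 6 libraries. In 12 of them the libraries of yl_12 and yl_11 did not overlap, and no test was run on them.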
